A study of Homo sapiens with 3 samples.

Results

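The S100 proteins and annexins described here are 8 genes, S100A4, S100A6, S100A10, S100A11, S100A13, ANXA1, ANXA2 and ANXA5, taken by their symbols from the 43913 gene symbols listed in 3 tables of single-cell RNA counts. Each table is 1 Drop-seq library, in which single cells are captured in droplets with barcoded beads and each RNA molecule is counted once by its unique molecular identifier (UMI). The libraries hold MM.1S, an established multiple myeloma line, in monoculture, HS-5, an established bone marrow stromal line, in monoculture, and a coculture of MM.1S and HS-5 cells that lasted 4 h by the labels, all without further treatment. The question the design puts to these genes is how far their levels separate the lines and how far those in each line differ between coculture and monoculture.

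S100 proteins are small EF-hand proteins that bind calcium and then dock onto partner proteins, inside the cell or, once released, outside it. Annexins bind membrane phospholipids in the presence of calcium and take part in membrane repair, vesicle traffic and exocytosis. The families meet in defined complexes, S100A10 with ANXA2 at the plasma membrane, where the pair acts as a docking site for plasminogen activation, and S100A11 with ANXA1. S100A4 is known for binding non-muscle myosin and for its part in cell motility, S100A6 binds the ubiquitin ligase adaptor CACYBP, S100A13 takes part in the release of FGF1 and IL1A without a signal peptide, and ANXA5 is the annexin used to stain exposed phosphatidylserine.

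The libraries held 3994, 3865 and 3963 cell barcodes and 10433182, 6143448 and 3981392 UMIs for MM.1S, HS-5 and the coculture, and 3947, 3732 and 3856 cells had at least 200 detected genes. Coculture cells were given to a line by genes at least 50-fold higher in 1 monoculture, 62 for MM.1S and 163 for HS-5, with the 8 genes taken out of these sets (S100A4 and S100A13 would have met the limit), which left 1642 MM.1S and 2103 HS-5 cells after 109 cells with UMIs of both lines were set aside. The median depth was 2201 UMIs per cell in MM.1S monoculture, 670 in MM.1S cells of the coculture, 971.5 in HS-5 monoculture and 957 in HS-5 cells of the coculture. Between 39 and 76 barcodes were shared by the coculture and a monoculture, 44 by the monocultures and 38 by all 3, and the 24 log2 ratios of the 8 genes in 3 comparisons kept their sign without them. The 9 plasma cell markers summed to 10103 counts per 1000000 UMIs (CPM) in MM.1S and 208 CPM in HS-5 monoculture, and the 9 stromal markers to 1052 and 3279 CPM. FN1, a stromal marker, went against its label with 810 CPM in MM.1S and 252 CPM in HS-5, as did SDC1, a plasma cell marker, with 38.1 and 135 CPM, and COL3A1 had at most 4.88 CPM in any group. Markers of myeloid and lymphoid cells summed to at most 4.51 CPM. Each condition is 1 library, so no difference has a replicate check and no test was made. All intervals are exact 95% intervals and cover counting error only.

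The 5 S100 genes lie on chromosome 1 within a cluster of 16 S100 genes and the annexins on chromosomes 4, 9 and 15 (GRCh38, GENCODE release 29). S100A6 (153534599 to 153536244), S100A4 (153543613 to 153550136) and S100A13 (153618787 to 153631360) stand in this order on the minus strand, with 7369 bases between the first pair and 68651 bases between S100A4 and S100A13. S100A10 (151982915 to 151994390) and S100A11 (152032506 to 152047907), also on the minus strand, form the far end of the cluster. ANXA1 lies on chromosome 9 (73151757 to 73170393, plus strand), ANXA2 on chromosome 15 (60347134 to 60402883, minus strand) and ANXA5 on chromosome 4 (121667955 to 121697113, minus strand).

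The 150 bases before the RefSeq start (GRCh38.p14, 5′ to 3′ on the gene's strand) are shown for the S100 genes whose levels differed most between lines or cultures and for their neighbour S100A6, and capitals mark TATA boxes (TATAAA) and GC boxes (GGGCGG). The windows are chr1:153545807-153545956 for S100A4, chr1:153535992-153536141 for S100A6, chr1:152037005-152037154 for S100A11 and chr1:153627506-153627655 for the second of 3 S100A13 starts.
S100A4: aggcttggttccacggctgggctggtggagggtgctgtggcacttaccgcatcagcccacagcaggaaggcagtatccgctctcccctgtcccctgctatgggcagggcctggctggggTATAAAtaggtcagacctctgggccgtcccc
S100A6: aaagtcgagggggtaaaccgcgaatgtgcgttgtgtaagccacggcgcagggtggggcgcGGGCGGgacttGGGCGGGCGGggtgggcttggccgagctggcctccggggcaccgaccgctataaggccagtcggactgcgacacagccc
S100A11: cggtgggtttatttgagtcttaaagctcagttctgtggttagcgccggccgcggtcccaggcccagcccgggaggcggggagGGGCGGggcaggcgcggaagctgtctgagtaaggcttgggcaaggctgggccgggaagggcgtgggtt
S100A13: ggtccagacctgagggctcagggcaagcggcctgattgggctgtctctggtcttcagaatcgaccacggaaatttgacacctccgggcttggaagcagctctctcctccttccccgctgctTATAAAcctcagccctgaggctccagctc
S100A4 holds a TATA box at -31 to -26 and no GC box, while S100A6 holds 3 GC boxes that start at -90, -79 and -75, the last pair overlapping. S100A11 holds 1 GC box at -68 to -63, and this S100A13 start a TATA box at -29 to -24. The other S100A13 starts hold no TATA box, and the first of them holds a GC box at -138 to -133 on the opposite strand. Of 35116 RefSeq promoters of 250 bases, 10.7% hold a TATA box and 42.6% a GC box on either strand.

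Among the annexins, ANXA1 has a TATA box at -31 to -26 and 0 CpG dinucleotides in its 250 bases, ANXA5 a GC box at -111 to -106 and 31 CpG, and ANXA2 a TATA box, 3 GC boxes, 28 CpG and an AP-1 motif (TGANTCA, 6.57% of all promoters) at -127 to -121. The median over all promoters is 11 CpG, and S100A4 has 7, S100A6 and S100A10 24 each. The NF-kB consensus (9.96% of all promoters) and the STAT motif (TTCNNNGAA, 6.57%) had no match in the 250 bases of any of the 8 genes, on either strand. A match is a description of these letters and not evidence of binding.

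The lines were set apart most by S100A4 and S100A13, near neighbours on chromosome 1 that had opposite patterns. S100A4 stood at 2125 CPM in MM.1S monoculture (2097 to 2153 CPM, 22173 UMIs) and 3.74 CPM in HS-5 monoculture (2.37 to 5.62 CPM, 23 UMIs), a level 568-fold higher in MM.1S (378 to 896-fold). S100A13 stood at 1.25 CPM in MM.1S monoculture (0.663 to 2.13 CPM, 13 UMIs) and 287 CPM in HS-5 monoculture (274 to 301 CPM, 1764 UMIs), a level 230-fold higher in HS-5 (134 to 434-fold). Each was thus abundant in 1 line and close to undetected in the other. S100A4 overlaps S100A3 on the same strand, and S100A13 overlaps AL162258.1 on the same strand and S100A1 on the other, and the strand setting of the counting is not given in the sources used here. S100A6 and S100A11 overlap antisense genes and ANXA2 a pseudogene, so reads shared with these cannot be told apart. S100A3 had at most 5.65 CPM, S100A1 at most 1.30 CPM and the other overlapping genes, AL162258.1 among them, at most 0.814 CPM in any group.

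ANXA5 and ANXA1 were the annexins that set HS-5 apart. ANXA5, the phosphatidylserine binder, stood at 81.5 CPM in MM.1S and 860 CPM in HS-5 monoculture, 10.6-fold higher in HS-5 (9.81 to 11.4-fold). ANXA1, the glucocorticoid-regulated annexin that pairs with S100A11, stood at 154 CPM in MM.1S and 817 CPM in HS-5, 5.29-fold higher (5.0 to 5.60-fold). S100A11, its partner, went the other way and was lower in HS-5, at 483 CPM (466 to 501 CPM) against 721 CPM (704 to 737 CPM) in MM.1S. This difference in S100A11 was a log2 ratio of -0.58 over all cells, -1.38 with equal weight per cell and -0.05 in cells of at least 2000 UMIs. S100A10 was 1.64-fold higher in HS-5 (1.5 to 1.79-fold), with 161 CPM against 98.1 CPM, and its partner ANXA2 1.16-fold higher (1.12 to 1.21-fold), with 730 against 628 CPM. S100A6, at 2926 CPM in MM.1S and 3085 CPM in HS-5, was the gene with the closest levels, 1.05-fold apart (1.04 to 1.07-fold). Over all genes the median log2 ratio of HS-5 over MM.1S was 0.56, and relative to it S100A6 and ANXA2 were lower in HS-5, by -0.49 and -0.35.

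Of the 8 genes, 3 were at least 2-fold higher in HS-5 (S100A13, ANXA1 and ANXA5) and 1 at least 2-fold lower (S100A4). Among the 8734 genes that averaged 10 CPM or more, 38.1% were at least 2-fold higher and 15.3% at least 2-fold lower, so the counts among the 8 are near the background. The median log2 ratio of the 8 was 0.46, against 0.56 over all genes.

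**Figure D1:**
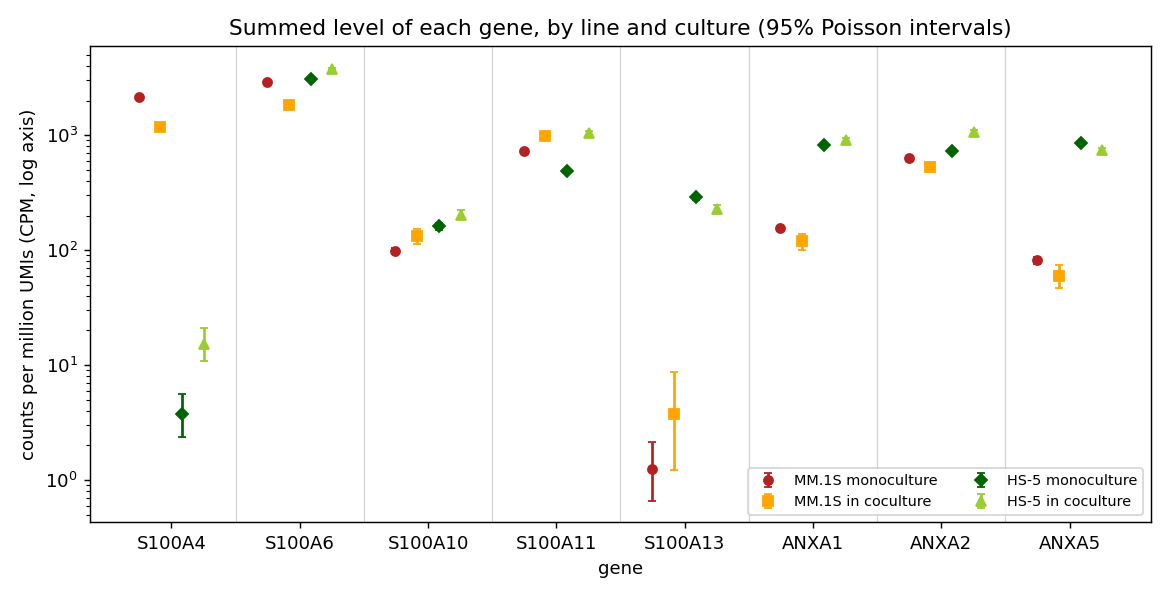
CPM on a log axis for each of the 8 genes, with the UMIs of all cells of a line summed in MM.1S monoculture, MM.1S cells of the coculture, HS-5 monoculture and HS-5 cells of the coculture, and 95% Poisson intervals as bars. S100A4 lies near 2125 in MM.1S and 3.74 in HS-5 monoculture, S100A13 at 1.25 and 287, while S100A6 lies between 1842 and 3790 in all 4 groups.

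The S100 cluster on chromosome 1 holds further genes on the HS-5 side of S100A4. S100A2, at 33.9 CPM in HS-5 and 1.73 CPM in MM.1S, and S100A16, at 229 CPM in HS-5 with no UMI in MM.1S monoculture, where 3 counts would be 0.288 CPM, were both higher in HS-5. Along the chromosome the order S100A6, S100A4, S100A2, S100A16, S100A13 thus went from a shared gene to an MM.1S gene to 3 HS-5 genes. Of the 15 other S100 genes, these and S100Z, on chromosome 5 with 13.5 CPM in MM.1S and 0.326 CPM in HS-5, were the 3 that reached 10 CPM in any group, and S100A9 had no UMI in any table.

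**Figure D2:**
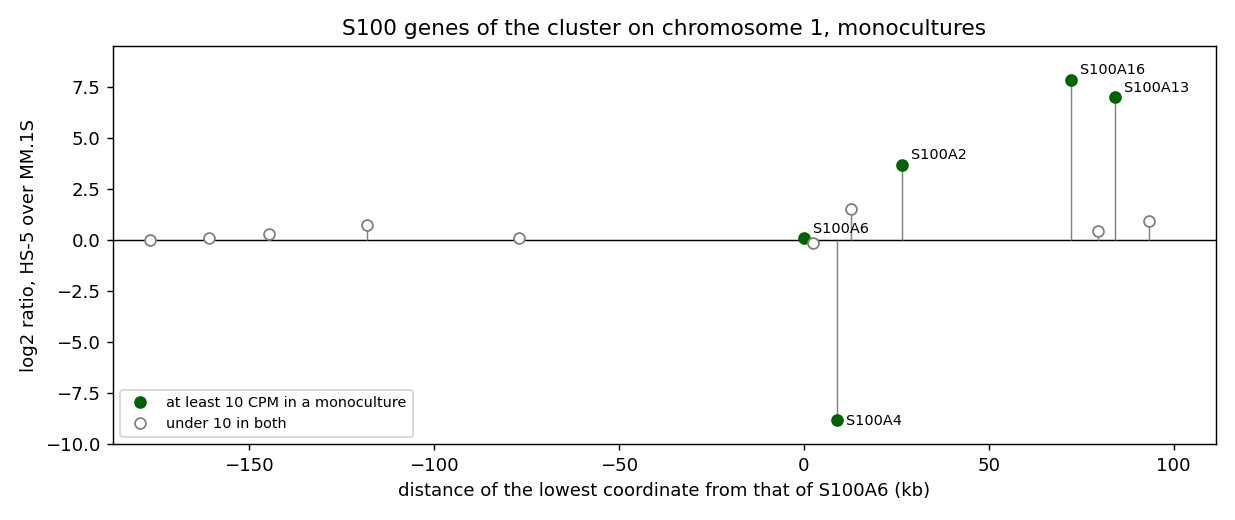
Log2 ratio of HS-5 over MM.1S monoculture for the S100 genes of chromosome 1 against the distance of each gene's lowest coordinate from that of S100A6 in kilobases, with S100A10 and S100A11 beyond the left edge. Filled points had at least 10 CPM in a monoculture, and S100A4 (-8.81) lies between S100A6 (0.08) and S100A2 (3.68), S100A16 (7.84 with the pseudocount of 1, since it has no UMI in MM.1S) and S100A13 (7.0).

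In MM.1S cells of the coculture, S100A4 and S100A6 were lower than in monoculture. S100A4 stood at 1171 CPM (1114 to 1231 CPM, 1557 UMIs) against 2125 CPM, a log2 ratio of -0.86 (-0.93 to -0.79), and S100A6 at 1842 CPM (1770 to 1917 CPM) against 2926 CPM, a log2 ratio of -0.67 (-0.73 to -0.61). These neighbours on chromosome 1 were the S100 genes that stood lower, and together the 8 genes went from 6736 to 4837 CPM. The annexins were lower too, ANXA1 with 119 against 154 CPM (log2 ratio -0.37, -0.62 to -0.14), ANXA2 with 527 against 628 CPM (-0.25, -0.37 to -0.14) and ANXA5 with 59.4 against 81.5 CPM (-0.45, -0.81 to -0.12). S100A11, at 982 CPM against 721 CPM (log2 ratio 0.45, 0.36 to 0.53), and S100A10, at 132 CPM against 98.1 CPM (0.42, 0.19 to 0.66), were higher. The ratios varied with depth, taken from 500 to below 1000, from 1000 to below 2000 and at least 2000 UMIs. ANXA1 was at 1.17, -1.69 and -0.09, ANXA2 at 0.28, -0.13 and -0.29 and ANXA5 at 0.70, -0.40 and -0.49. The first of these bands has 77 monoculture cells, with 5 ANXA1 UMIs. The Poisson intervals of the cultures overlap there for each annexin, so the positive annexin ratios are not beyond counting error. In the same bands S100A4 was at -0.65, -1.29 and -1.32 and S100A6 at -0.64, -0.95 and -0.80. S100A11 was at 1.01, 0.39 and 0.67 and S100A10 at 0.07, 0.50 and 0.81. S100A13 had 5 UMIs, 3.76 CPM, under the minimum mean of 10 CPM.

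None of the 7 genes over this minimum differed by 2-fold in MM.1S cells, where 19% of 7835 genes were at least 2-fold higher and 5.78% at least 2-fold lower in coculture. The median log2 ratio of the 7 was -0.37, against 0.24 over all genes, and the 8 genes have short transcripts. With genes divided by transcript length into 4 equal groups, the median was -0.13 in the shortest (under 1525 bases), which holds 7 of the 8, 0.13 in the next, which holds ANXA1, and 0.59 in the longest. The share of mitochondrial UMIs was 6.82% in monoculture and 4.05% in coculture, that of ribosomal protein genes 18.8% and 12%. The part of depth, transcript length and library in these ratios was not tested. S100A4 passed 2-fold with cells of at least 500 genes (-1.02), without mitochondrial and ribosomal protein genes (-1.03), relative to the median of all genes (-1.1), in cells thinned to 1000 UMIs (-1.21) and in the 50 coculture cells of at least 2000 UMIs (-1.32), and ANXA1 in thinned cells (-1.01).

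In HS-5 cells of the coculture, S100A11 stood out among the 8. It had 1039 CPM (999 to 1080 CPM, 2572 UMIs) against 483 CPM in monoculture (466 to 501 CPM, 2969 UMIs), a log2 ratio of 1.10 (1.03 to 1.18) that was higher than in 99.2% of 8811 genes. ANXA2, the scaffold of the S100A10 complex, had 1070 CPM against 730 CPM (log2 ratio 0.55, 0.48 to 0.62), S100A10 203 against 161 CPM (0.33, 0.18 to 0.49) and S100A6 3790 against 3085 CPM (0.30, 0.26 to 0.33). ANXA1 differed little, with 905 against 817 CPM (0.15, 0.08 to 0.22). S100A13, with 227 against 287 CPM (-0.34, -0.48 to -0.20), and ANXA5, with 744 against 860 CPM (-0.21, -0.29 to -0.13), were lower, and these are genes of the HS-5 side.

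S100A11 was the 1 gene of 7 over the minimum that was at least 2-fold higher and 0 were at least 2-fold lower, beside 1.21% and 1.82% of all genes. The median log2 ratio of the 7 was 0.30, against -0.04 over all genes and 0.21 in the shortest length group. Relative to its length group the log2 ratio of S100A11 was 0.89, and the count at 2-fold was then 0. Both coculture comparisons use the same coculture library, and S100A11 and S100A10 were higher in it in both lines.

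**Figure D3:**
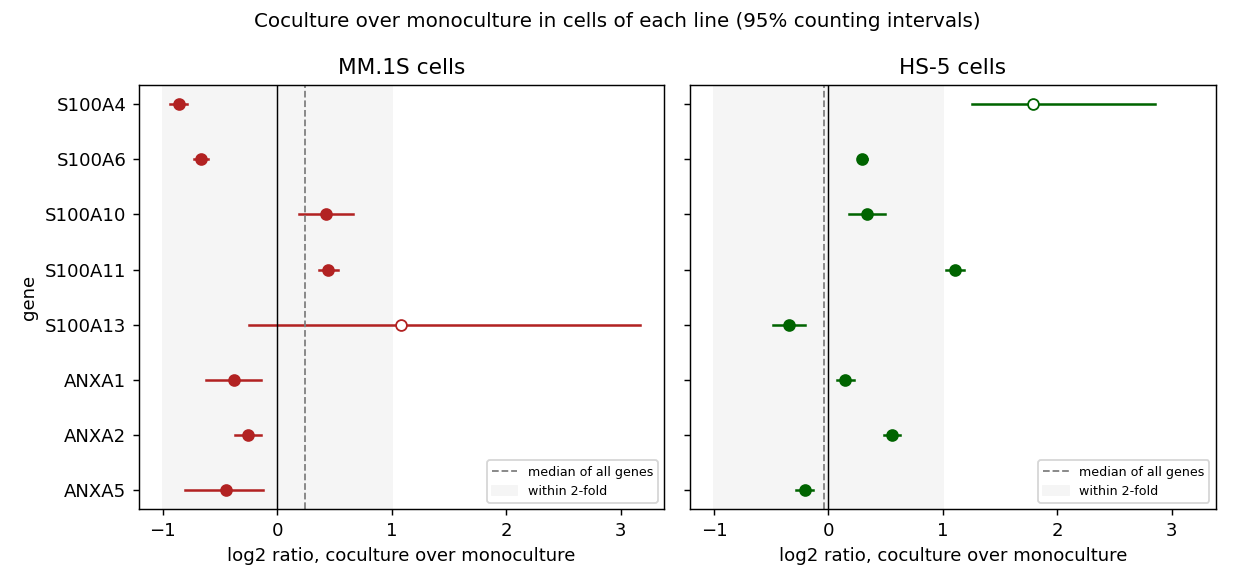
Log2 ratio of coculture over monoculture for each gene in MM.1S cells (left) and HS-5 cells (right), with 95% counting intervals as lines, the median of all genes as a dashed line and the range within 2-fold shaded. Open points have a mean under 10 CPM, and S100A11 in HS-5 cells, at 1.10, is the only filled point past 2-fold.

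The difference in S100A11 depended on the depth of the HS-5 cells. In HS-5 monoculture S100A11 stood at 200 CPM in cells below 500 UMIs, 181 CPM from 500 to below 1000, 243 CPM from 1000 to below 2000 and 704 CPM in cells of at least 2000 UMIs. In HS-5 cells of the coculture it stood at 817, 857, 993 and 1283 CPM in the same bands. The coculture level was higher at every depth, by a log2 ratio of 2.03, 2.24, 2.03 and 0.86 from the shallowest band to the deepest, and the last is under 2-fold.

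ANXA2 had the same form. Its monoculture levels were 578, 399, 501 and 953 CPM and its coculture levels 817, 944, 1111 and 1157 CPM, log2 ratios of 0.50, 1.24, 1.15 and 0.28. S100A6, by comparison, was level across depth in both cultures, with log2 ratios between 0.26 and 0.33 in all 4 bands. ANXA1 changed sign, from -0.49 in the shallowest cells to 0.33 in the deepest.

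Within HS-5 monoculture alone, the 752 cells of at least 2000 UMIs had S100A11 higher than the 2980 shallower cells by a log2 ratio of 1.72 (1.59 to 1.85), more than 99.6% of 8824 genes. ANXA2 was higher in them by 1.05 (0.96 to 1.15), more than 96.8% of genes, and S100A13 lower by -0.67 (-0.81 to -0.54). The median over all genes was -0.01 and that of the shortest length group 0.25. In HS-5 cells of the coculture the same split gave 0.46 (0.34 to 0.57) for S100A11 and 0.16 (0.04 to 0.28) for ANXA2, and in MM.1S monoculture 0.07 (-0.01 to 0.14) and 0.05 (-0.03 to 0.14). The gap between cultures was thus wider in the shallower cells of the HS-5 monoculture than in its deepest, where both genes were still below their coculture levels, and the cause was not tested. These depth bands were chosen after seeing the data.

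**Figure D4:**
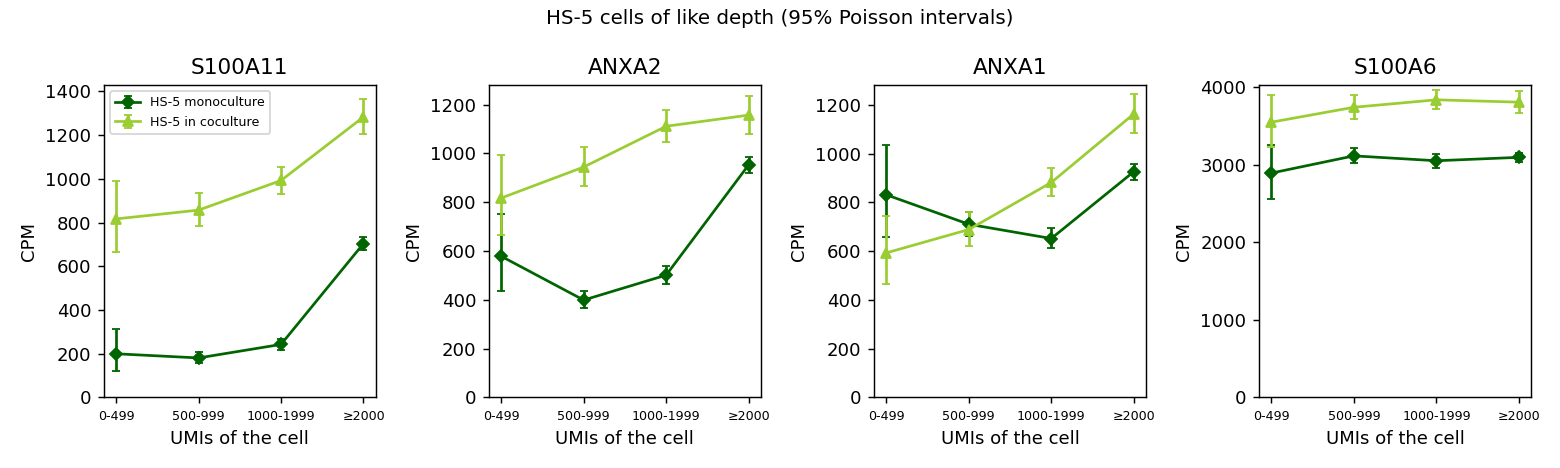
CPM of S100A11, ANXA2, ANXA1 and S100A6 in HS-5 cells of 4 depth bands, in monoculture (diamonds) and coculture (triangles), with 95% Poisson intervals. S100A11 in monoculture stays between 181 and 243 below 2000 UMIs per cell and reaches 704 above, while in coculture it lies between 817 and 1283.

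S100A4 in HS-5 cells and S100A13 in MM.1S cells of the coculture were at the level that genes specific to the other line showed there. HS-5-specific genes reached 1.96% of their HS-5 level in the coculture's MM.1S cells (median gene 1.91%, 157 genes over 50 CPM), and MM.1S-specific genes 0.964% of their MM.1S level in its HS-5 cells (median gene 1.16%, 50 genes). S100A4 in HS-5 cells of the coculture, at 15.3 CPM (10.9 to 21.1 CPM, 38 UMIs), was 1.31% of its level in MM.1S cells, and S100A13 in MM.1S cells was 1.66% of its level in HS-5 cells. Both lay inside the middle range of the other line's specific genes (0.673 to 1.95% and 1.06 to 3.66% from the 25th to the 75th percentile), a level not distinguished here from RNA of the other line in the droplets. In the monocultures, which were not mixed, the same genes were at 0.383% and 0.269% of that level. The 50-fold limit that picked these genes holds their monoculture level low, so these values are no independent control. With the coculture share of 0.964% subtracted, the log2 ratio of S100A4 in HS-5 cells went from 1.78 to 0.09.

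The remaining genes stood far above that floor except for a part of the HS-5 annexins in MM.1S cells. ANXA5 in MM.1S cells of the coculture was 7.99% and ANXA1 13.1% of the HS-5 level, above the 95th percentile of the specific genes, 7.38%. The estimated RNA of HS-5 cells came to 24.5% of the ANXA5 and 14.9% of the ANXA1 level there, and the log2 ratios of these annexins after subtraction were -0.85 and -0.61. For S100A6, S100A10, S100A11 and ANXA2 it came to at most 4.03%.

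**Figure D5:**
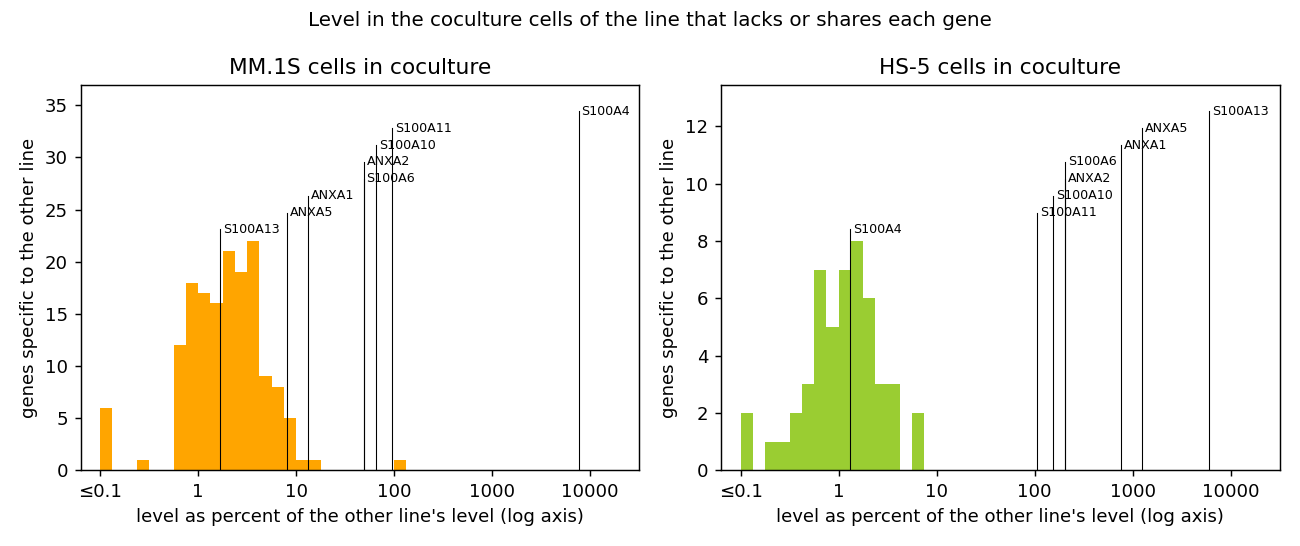
Number of genes specific to the other line against their level in the coculture's MM.1S cells (left) and HS-5 cells (right), as percent of the other line's level on a log axis, with the 8 genes marked by lines. S100A13 (1.66%) in MM.1S cells and S100A4 (1.31%) in HS-5 cells lie within the specific genes, and ANXA5 (7.99%) in MM.1S cells lies at their upper edge.

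Cell by cell, with each cell thinned to 1000 UMIs, S100A6 was detected in 92.1% of 3870 MM.1S and 92.6% of 1802 HS-5 monoculture cells. In coculture it was detected in 77.3% of 379 MM.1S cells (72.8 to 81.4%, exact Clopper-Pearson) and 94.1% of HS-5 cells. S100A4 was found in 84.3% of MM.1S cells in monoculture (95.1% before thinning) and 60.7% in coculture (55.1% before), against 0.333% and 1.4% of HS-5 cells. The lower S100A4 level in coculture was thus spread over many cells, with a median of 2 UMIs per thinned monoculture cell and 1 in coculture. The coculture's MM.1S cells that reach 1000 UMIs are 379 of 1642, so these shares describe its deeper cells.

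A UMI of S100A11 was present in 28.2% of the HS-5 monoculture (26.2 to 30.4%) and 61.0% of its coculture cells (57.9 to 64.0%), and for ANXA2 these shares were 44.7% (42.4 to 47.0%) and 66.9% (63.9 to 69.8%). Before thinning, the shares were 27.9% and 55.5% for S100A11 and 43.0% and 60.5% for ANXA2. In MM.1S cells the shares were 50.3% and 55.7% for S100A11, with intervals that overlap (48.7 to 51.9% and 50.5 to 60.7%), and 44.0% and 43.5% for ANXA2. ANXA5 was found in 56.8% and 49.4% of HS-5 cells and S100A13 in 24.8% and 18.3%, the shares of both lower in coculture. S100A10 was detected in 8.27 to 18.7% of cells over the 4 groups.

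ANXA1 was unevenly spread over MM.1S cells. Its variance over cells was 2.20 times its mean in MM.1S monoculture, where the median over 1433 genes was 1.05. Of 3870 cells, 89.7% had no ANXA1 UMI, and the 124 cells (3.20%) with 2 or more held 55.6% of the ANXA1 UMIs, where a Poisson spread of the same mean would put 1.16% of cells at 2 or more. HS-5-specific genes made up 0.0298% of UMIs in those 124 cells and 0.0258% in cells without ANXA1, and the median depth before thinning was 1922.5 and 2252.5 UMIs.

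The other genes of the annexin complexes were partly higher in the cells with ANXA1. S100A10 stood at 82.1 CPM in cells without ANXA1 (72.9 to 92.2 CPM), 178 CPM with 1 UMI (131 to 235 CPM) and 250 CPM with 2 or more (170 to 355 CPM). ANXA2 stood at 591, 757 and 919 CPM (566 to 618, 658 to 867 and 758 to 1104 CPM) and S100A6 at 3031, 3319 and 3766 CPM. S100A11, the classical ANXA1 partner, did not follow, with 723, 670 and 726 CPM and overlapping intervals, and S100A4 had 2242, 2380 and 1927 CPM. These classes were set after seeing the data and are ranges of a count, not cell types.

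Pairs of the 8 genes were at most weakly correlated across thinned cells of a group, with Pearson's r from -0.03 to 0.24 over 28 pairs in MM.1S monoculture, -0.09 to 0.16 in MM.1S cells of the coculture, -0.08 to 0.11 in HS-5 monoculture and -0.04 to 0.15 in HS-5 cells of the coculture. The highest value belonged to S100A4 and S100A6 in MM.1S monoculture. This pair had means of 2.24 and 3.07 UMIs per thinned cell there, and the other genes were sparser. Such values hold counting noise, describe the cells and are not a result.

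S100A6 was lower in cells with UMIs of mitotic genes in both monocultures and in HS-5 cells of the coculture. In cells with at least 2 UMIs of 15 mitotic genes, S100A6 stood at 2648 CPM in MM.1S monoculture against 3293 CPM in cells with none, at 2978 against 3518 CPM in HS-5 monoculture and at 3599 against 4239 CPM in HS-5 cells of the coculture, log2 ratios of -0.31, -0.24 and -0.24. In MM.1S cells of the coculture it stood at 1568 against 1830 CPM, with an interval that holds 0 (-0.22, -0.49 to 0.04). S100A11 was lower in these coculture cells with mitotic UMIs, at 776 against 1138 CPM (-0.55, -0.92 to -0.19). In the other groups the interval of S100A11 holds 0. ANXA1 in MM.1S monoculture had 116 CPM in cells with these UMIs (94.2 to 142 CPM) against 189 CPM (172 to 207 CPM) in the others, and S100A4 2024 against 2307 CPM. ANXA5 and S100A13 in HS-5 monoculture had log2 ratios of -0.31 and -0.37. Among cells that reach 1000 UMIs, those with at least 2 such UMIs were 21.6% of MM.1S cells in monoculture and 33% in coculture (125 of 379), and 72.1% and 60.2% of HS-5 cells, shares of a range of a count and not of cells in mitosis, and the part of these shares in the ratios between cultures was not tested.

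Of the 10 other annexins, 4 reached 10 CPM in a group, and their median log2 ratio of HS-5 over MM.1S was 0.38. ANXA6, an annexin with a doubled core, had 60.7 CPM in HS-5 and 3.74 CPM in MM.1S monoculture, following the side of ANXA1 and ANXA5. ANXA11, which tethers RNA granules to lysosomes, had 123 CPM in MM.1S monoculture and 264 CPM in the coculture's MM.1S cells, a log2 ratio of 1.09 (0.92 to 1.27), opposite to the annexins among the 8. Its transcripts, with a median of 4627 bases, fall in the longest length group, where the median log2 ratio was 0.59. The shortest group, which holds ANXA2 and ANXA5, had -0.13. ANXA7 had 91.6, 109, 145 and 177 CPM in MM.1S monoculture, MM.1S in coculture, HS-5 monoculture and HS-5 in coculture, and ANXA4 between 23.3 and 35.5 CPM. Processed copies that could share reads with ANXA2, S100A10 and S100A11 were under 10 CPM in the 4 of 7 that were listed, ANXA2P2 at most 2.78 CPM.

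Among binding partners, 7 of 9 reached 10 CPM in a group, and 2 of the 6 over the minimum mean in the MM.1S comparison, AHNAK and MYH9, were at least 2-fold higher in coculture, beside 19% of all genes, with a median of 0.25 against 0.24 over all genes. AHNAK, the giant scaffold bound by the S100A10 and ANXA2 complex, stood at 184 CPM in MM.1S monoculture and 504 CPM in the coculture's MM.1S cells, a log2 ratio of 1.45 (1.33 to 1.58). In HS-5 it stood at 211 CPM in monoculture and 152 CPM in coculture (-0.47, -0.64 to -0.31). MYH9, the heavy chain of non-muscle myosin bound by S100A4, stood at 43.6 and 114 CPM (1.37, 1.12 to 1.66), and in HS-5 at 264 and 200 CPM (-0.40, -0.55 to -0.26). CACYBP, the S100A6 partner, stood at 294 and 506 CPM in MM.1S (0.78, 0.66 to 0.91) and at 289 and 383 CPM in HS-5 (0.40, 0.29 to 0.52). In MM.1S cells MYH9 and CACYBP were thus higher in coculture and S100A4 and S100A6 lower. The shortest length group, which holds S100A4 and S100A6, had a median log2 ratio of -0.13 there and the longest 0.59. The part of transcript length in this contrast was not tested. IL1A, the cargo of S100A13, was an HS-5 gene as S100A13 was, at 172 CPM against 0.383 CPM in MM.1S.

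PLAU, the urokinase of the plasminogen system that the S100A10 and ANXA2 complex serves, was an HS-5 gene, at 127 CPM in HS-5 and 1.15 CPM in MM.1S monoculture. In HS-5 cells of the coculture it stood at 163 CPM, a log2 ratio of 0.36 (0.19 to 0.54). Of the 4 listed genes of this system over the minimum mean there, 1 was at least 2-fold lower, beside 1.82% of all genes. None was at least 2-fold higher, beside 1.21%, and their median log2 ratio was -0.07, against -0.04 over all genes. Of 6 receptors of S100 proteins and annexins, BSG alone reached 10 CPM, with 110 CPM in MM.1S and 30.1 CPM in HS-5 monoculture. Of 10 other calcium-binding proteins, 4 were at least 2-fold higher in HS-5 and 1 at least 2-fold lower, counts near the background of 38.1% and 15.3% of all genes. In coculture 1 was at least 2-fold higher in MM.1S cells, beside 19% of all genes, and 0 in HS-5 cells, beside 1.21%. The gene higher in MM.1S cells was CAPNS1, the small calpain subunit, at 44.4 CPM against 16.7 CPM.

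Over the 4 groups, 1829 genes averaged 100 CPM or more and were compared with each of the 8 by the root mean square difference of their centred log2 profiles. The closest to S100A4 were IGKC (0.20) and IGLC7 (0.22), the immunoglobulin light chain genes of the plasma cell line, and to S100A13 WFDC21P (0.08). COX6A1 (0.09) and AL122020.1 (0.10) were closest to S100A11, and in HS-5 monoculture they too were higher in cells of at least 2000 UMIs, by log2 ratios of 1.75 and 1.36. For ATP6V0E1 and POLR2L, the genes closest to ANXA2, the same split gave 0.94 and 0.25. The annexin ANXA7 was the second closest gene to S100A10 (0.06), after DRAP1 (0.03). S100A6 was closest to ERH (0.06), ANXA1 to SERINC3 (0.08), ANXA2 to ATP6V0E1 (0.03) and ANXA5 to TNNT1 (0.07). With 4 values per profile these are descriptions of levels.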

How the data were processed

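Single-cell RNA was measured by Drop-seq in 3 libraries, and the authors deposited whole-number UMI counts per gene and cell barcode, not normalized. The submitters' processing notes name Cell Ranger 3.0.2, UMI-tools 1.0.0, STAR 2.5.3a, Subread, featureCounts 1.6.4 and SAMtools 1.9 with GRCh38 (hg38), and the methods name Seurat for the authors' analyses. The annotation, the strand setting and the choice of barcodes are not given in the sources used here. The labels give 4 h of coculture, and a figure legend of the study gives a shorter time.

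Cells with at least 200 genes were kept. Line-specific genes had (CPM + 1) at least 50-fold higher in 1 monoculture, leaving out the 8 genes, and coculture cells needed 3 UMIs of them. Those with an HS-5 share of these UMIs between 0.2 and 0.8 were set aside as likely doublets, with no doublet caller run. The UMIs of a line's cells in a library were added up and expressed as CPM, and log2 ratios have a pseudocount of 1 and call a gene past 2-fold at a mean of at least 10 CPM. Intervals are exact (Poisson, conditional binomial, Clopper-Pearson). A count of 3 equals 2.26 CPM in the coculture's MM.1S cells. Transcript lengths (GENCODE release 29) matched 97.3% of symbols. Scripts used Python 3.11.15, numpy 2.4.6, scipy 1.17.1, pandas 2.3.3 and matplotlib 3.10.9, and the ratio step was tested on simulated data.

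All 8 genes are named, list genes with at least 10 CPM in a group, and the 2 genes most like each of the 8. Some genes that this rule picks are not reported here. The members and lists were chosen with earlier results of these data known. The alternatives were other limits on cells, scalings, pseudocounts, line genes, doublet limits and subtraction of free RNA. Thinned cells, cells of at least 2000 UMIs and cells without shared barcodes were added after seeing the data.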

Additional observations from a re-analysis of the deposited data

Results flagged for a closer look

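For S100A4, S100A6, ANXA1 and ANXA2 the log2 ratio of coculture over monoculture was below 0 in MM.1S cells and above 0 in HS-5 cells, each beyond counting error, and the difference between the lines was not tested, since each line has 1 library per condition. The ratio in MM.1S minus that in HS-5 was -2.64 for S100A4, -0.96 for S100A6, -0.52 for ANXA1 and -0.81 for ANXA2. The shortest length group, which holds S100A4, S100A6 and ANXA2, had medians of -0.13 in MM.1S and 0.21 in HS-5 cells. The next group, which holds ANXA1, had 0.13 and -0.01. The share of all genes with such opposite signs was not computed. The HS-5 value of S100A4 rests on 38 UMIs, and after subtraction of the RNA of MM.1S cells its log2 ratio in HS-5 was 0.09. S100A4, S100A6, ANXA1 and ANXA2 each kept their signs in all 15 alternatives in each line. By depth, ANXA1 in HS-5 cells went the other way below 1000 UMIs, at -0.49 under 500 and -0.04 above. In MM.1S cells from 500 to below 1000 UMIs ANXA1 and ANXA2 did so, at 1.17 and 0.28. In each of these bands the Poisson intervals of the cultures overlap.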

How the results depend on the processing

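The 24 log2 ratios (8 genes in 3 comparisons) were recomputed under up to 15 alternatives each, 320 values in all, of which 314 kept their sign and 232 lay within the counting interval. The signs lost were those of S100A6 and ANXA2 between the monocultures, S100A6 relative to the median of all genes and without mitochondrial and ribosomal protein genes, ANXA2 under these and with equal weight per cell, and that of S100A13 in MM.1S cells with free RNA subtracted. The 4 genes past 2-fold between the monocultures became 5, with S100A11, with equal weight per cell and relative to the median of all genes. In MM.1S cells the count went from 0 to 1 with cells of at least 500 genes, relative to the median of all genes, without mitochondrial and ribosomal protein genes, and with cells of at least 2000 UMIs, and to 2 (S100A4 and ANXA1) in cells thinned to 1000 UMIs. In HS-5 cells the count of 1 became 2 without mitochondrial and ribosomal protein genes, and 2 with equal weight per cell, where S100A4 reached the minimum mean, and 0 relative to the length group and with cells of at least 2000 UMIs. Assigning cells by alternate line-specific genes gave free RNA rates of 1.82% and 2.21% in MM.1S cells, and 0.962% and 1.78% in HS-5 cells. The cause of these shifts was not tested.

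With 50 coculture MM.1S cells of at least 2000 UMIs and a median of 670, depth limits what can be said of S100A10, ANXA1 and ANXA5 in those cells. Length, depth and library differ together between the cultures and cannot be told apart. No paired analysis was possible because each condition is 1 library.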
